A study of Mus musculus with 8 samples.

Results

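DNA replication and S-phase genes were followed in alphaTC6, a line of mouse pancreatic alpha cells, after knockdown of the transcription factor Klf4. The 44 genes were taken from a named list and matched by symbol to the deposited count table, where each of the 44 was found among 55536 rows, and the rule used no measured value, although the list was drawn up with earlier results of these data known. Poly(A) RNA was sequenced 48 h after a reverse transfection with RNAiMax Lipofectamine, in 4 libraries given an siRNA pool against Klf4 and 4 given a scramble siRNA, the control. All 8 libraries came from the same line, labelled WT in genotype, and the design text calls the 4 of each group biological replicates. By the labels, batch 1 holds scramble replicates 1 and 2 and Klf4 siRNA replicates 1, 2 and 4, and batch 2 holds scramble replicates 3 and 4 and Klf4 siRNA replicate 3. What the batches are is not stated, and the RNA protocol speaks of isolated islets although each sample is labelled alphaTC6.

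Before S phase, the origin recognition complex, Cdc6 and Cdt1 load the ring-shaped MCM2-7 helicase onto DNA. Cyclin E with its kinase and the E2F factors open S phase, Cdc45 and the GINS complex switch the helicase on, polymerase alpha with primase starts each strand, and polymerases delta and epsilon extend it on the Pcna clamp. Most of these genes are E2F targets, held off by Rb-family proteins in resting cells. Alpha cells of the adult islet seldom divide, whereas alphaTC lines grow continuously: they come from tumours of mice that carry SV40 large T antigen under a glucagon gene promoter, and T antigen binds Rb-family proteins. The levels described here are therefore those of a dividing tumour line, and, because the RNA is from bulk cells, fewer cells in S phase and less RNA per such cell cannot be told apart.

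The promoters are shown because E2F factors are known regulators of replication genes, and because KLF factors bind GC-rich words. RefSeq promoter windows (GRCm38.p6, from 250 bases before to 50 bases after each start site) were found for 36 of the 44 genes, in 43 windows. At least 1 of the E2F words TTTCCCGC, TTTCGCGC, TTTGCCGC and TTTGGCGC, on either strand, lay in 14 of the 43 windows (32.6%), against 2.26% of all 32851 windows. The word CCAAT, bound by the factor NF-Y, was in 62.8% of the 43 windows and 37.4% of all windows, and the KLF word GGGNGTGG in 27.9% and 17.6%. A matching word is a description and not a shown binding site. In the stretches below, which end at the base before the start site and are read in the direction of the gene, capitals mark these words on either strand. Mcm5 (chr8:75109339-75109508, plus strand) and Mcm6 (chr1:128359706-128359835, minus strand) each carry a pair of E2F words that overlap on opposite strands, Orc1 (chr4:108579324-108579453, plus strand) carries words of all 3 kinds, and Ccne1 (chr7:38107491-38107690, minus strand), E2f2 (chr4:136172144-136172273, plus strand) and Rpa3 (chr6:8259142-8259271, minus strand) belong to genes that changed after Klf4 siRNA. The Ccne1 stretch holds the KLF word, that of E2f2 the KLF word and CCAAT, and that of Rpa3 CCAAT.
Mcm5: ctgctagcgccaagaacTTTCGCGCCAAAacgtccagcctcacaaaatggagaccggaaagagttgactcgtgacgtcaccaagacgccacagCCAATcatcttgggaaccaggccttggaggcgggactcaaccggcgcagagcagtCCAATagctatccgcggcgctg
Mcm6: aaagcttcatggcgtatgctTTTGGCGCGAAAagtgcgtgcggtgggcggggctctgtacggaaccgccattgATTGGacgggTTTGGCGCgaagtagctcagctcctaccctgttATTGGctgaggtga
Orc1: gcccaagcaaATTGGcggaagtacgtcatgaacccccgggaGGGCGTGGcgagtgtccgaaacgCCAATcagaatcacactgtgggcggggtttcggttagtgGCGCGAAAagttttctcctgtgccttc
Ccne1: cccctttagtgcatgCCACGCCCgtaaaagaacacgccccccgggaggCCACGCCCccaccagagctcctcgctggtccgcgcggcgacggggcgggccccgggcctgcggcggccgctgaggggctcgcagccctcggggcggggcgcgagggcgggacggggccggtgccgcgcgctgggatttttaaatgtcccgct
E2f2: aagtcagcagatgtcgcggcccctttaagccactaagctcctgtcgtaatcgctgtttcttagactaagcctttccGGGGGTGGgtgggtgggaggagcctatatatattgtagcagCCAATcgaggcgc
Rpa3: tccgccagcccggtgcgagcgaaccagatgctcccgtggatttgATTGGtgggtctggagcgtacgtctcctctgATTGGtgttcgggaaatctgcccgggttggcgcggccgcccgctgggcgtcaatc

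Totals ran from 45954151 to 64185987 counts per library, and the 44 genes together took between 0.547% and 0.582% of them. Klf4, the targeted gene, stood at 39.2, 35.1, 46.3 and 46.8 CPM (counts relative to a fixed library total, with totals scaled by TMM) in scramble replicates 1 to 4 and at 12.5, 11.5, 19.8 and 18.8 CPM after Klf4 siRNA, log2 fold change -1.33 (SE 0.17, adjusted p = 0.0083 by edgeR), so that 39.8% remained. Its adjusted p was 0.104 in batch 1 alone and 0.052 without scramble replicate 1. Of 12 alpha cell markers 11 had enough counts to be tested, and their summed level was higher in batch 2 (13662 to 14987 CPM) than in batch 1 (6743 to 7008 CPM). Beta cell markers, of which 2 of 8 had enough counts to be tested, summed to 107 to 152 CPM, with Ins1, Ins2, Ucn3 and Pdx1 at 0 counts in all libraries. Delta, PP and epsilon cell markers, with 0 of 5 tested, summed to at most 0.452 CPM. Fibroblast markers summed to 18.6 to 21.1 CPM in scramble libraries and 19.3 to 27.0 CPM in Klf4 siRNA libraries, acinar and duct markers to at most 11.1 CPM, endothelial markers to at most 8.17 CPM and immune markers to at most 3.18 CPM. In the same order 2 of 6, 2 of 7, 3 of 5 and 2 of 6 of these markers had enough counts to be tested. All but the fibroblast and the delta, PP and epsilon sums were higher in batch 2 without overlap: beta 107 to 123 CPM in batch 1 and 139 to 152 CPM in batch 2, acinar and duct 7.32 to 8.69 and 9.55 to 11.1 CPM, endothelial 2.79 to 3.63 and 6.63 to 8.17 CPM, and immune 1.93 to 2.12 and 2.67 to 3.18 CPM. The part of other cells in the results below was not tested.

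All 44 replication genes were expressed and passed the filter on low counts, and the lowest count of any of them in any library was 321. Levels were divided by the kilobases of merged exons to set different genes beside each other. The merged exons cover every annotated isoform and not the expressed transcript, so the order below depends on the annotation. In CPM Mcm2 was the highest of the 44 (625 CPM in the scramble mean), but its merged exons span 6956 bases, against 2400 for Pcna. Per kilobase Pcna, the sliding clamp, was highest in scramble libraries at 117 ± 4.98 CPM per kb (SD, n = 4). Rrm2, the regulated subunit of ribonucleotide reductase, followed at 98.3 ± 1.00 CPM per kb, then Mcm3 at 93.4 ± 1.60 and Mcm2 at 89.8 ± 1.34 CPM per kb. The ranges of Pcna and Rrm2 did not overlap, nor did those of Rrm2 and Mcm3 (97.5 to 99.3 and 91.8 to 95.6 CPM per kb) or of Mcm3 and Mcm2 (88.6 to 91.3 CPM per kb). The lowest were Orc1, the largest origin recognition subunit, at 3.66 ± 0.115, Gins1 at 4.55 ± 0.165, Mcm10 at 4.71 ± 0.169 and Gins3 at 4.79 ± 0.138 CPM per kb. The ranges of Gins1, Mcm10 and Gins3 overlapped, whereas Orc1 lay below them in each library.

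**Figure D1:**
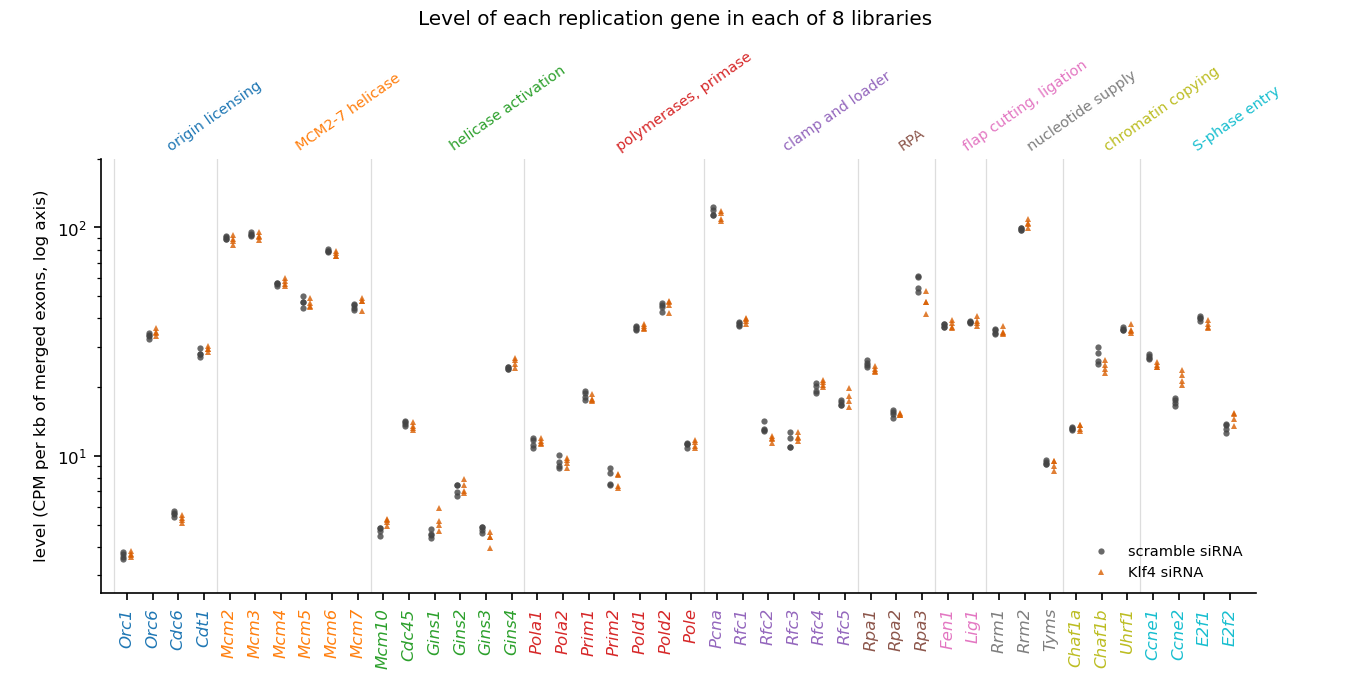
Level of each of the 44 genes in each library, in CPM per kb of merged exons on a log axis, grouped by role (coloured names), with scramble libraries as grey circles and Klf4 siRNA libraries as orange triangles. Levels span from 3.66 (Orc1) to 117 CPM per kb (Pcna) in scramble means, and the libraries of a gene lie close together on this scale.

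After Klf4 siRNA the largest changes among the replication genes were a rise of the cyclin Ccne2 and a fall of the RPA subunit Rpa3, and most of the others did not pass the test. Of the 44 genes 8 passed the threshold of an edgeR adjusted p under 0.05 (18.2%), against 11.7% of all 16333 genes tested. Higher were 3 of the 44 (Ccne2, E2f2 and Mcm10), where 4.88% of all genes were higher, and lower were 5 (Rpa3, Rfc2, Chaf1b, Ccne1 and E2f1), where 6.81% of all genes were lower. The median log2 fold change of the 44 was -0.0034 and of all tested genes 4.33e-05, while the median absolute log2 fold change was 0.046 for the 44 and 0.077 for all. For 34 of the 36 genes that did not pass, the 95% interval of the log2 fold change lay within 0.2 of zero on either side. The exceptions were Gins1 (0.025 to 0.35) and Gins3 (-0.25 to -0.0028), the GINS subunits with the lowest CPM. The libraries of the 2 groups did not overlap for 4 of the 44 genes (9.09%), near the 10.5% of all genes, and those 4 were Ccne2, Ccne1, Rfc2 and Mcm10. Without the batch term 1 of the 44 passed (Ccne2), in batch 1 alone 3 (Ccne2, Rpa3 and Rfc2), and with each library left out in turn between 3 and 9 (3 without Klf4 siRNA replicate 3, and 4 without the first scramble, the second scramble or the first Klf4 siRNA replicate).

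**Figure D2:**
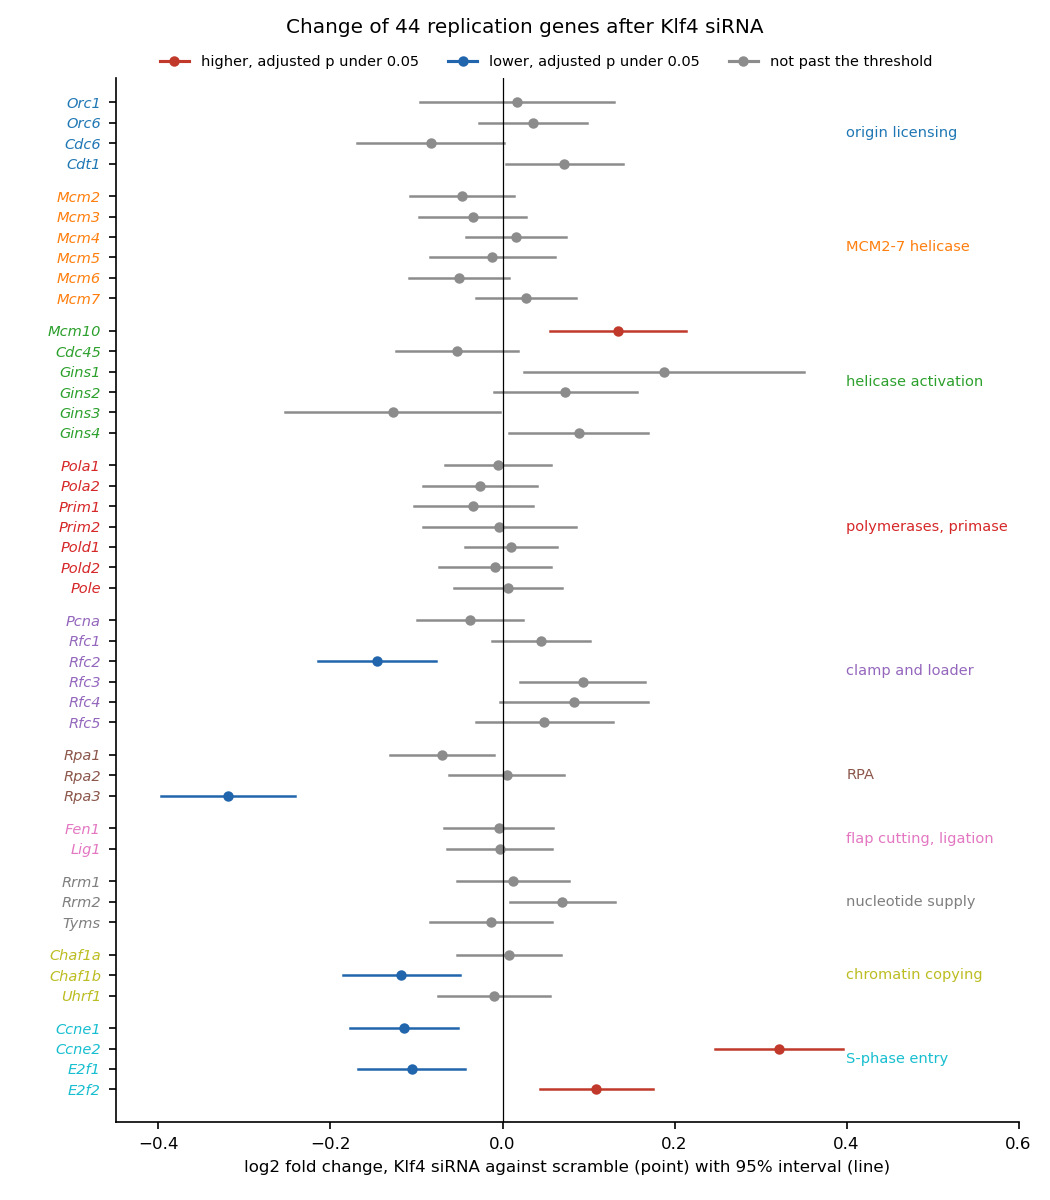
Log2 fold change of each of the 44 genes after Klf4 siRNA (points) with its 95% interval (lines), grouped by role, red where higher and blue where lower at an edgeR adjusted p under 0.05. Ccne2 (0.32) and Rpa3 (-0.32) lie farthest from 0, and the MCM2-7 and polymerase genes cluster at 0.

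The 4 S-phase entry genes all passed, where 11.7% of all genes did, in opposite directions within each pair of relatives. Ccne2 alone of the 4 passed without the batch term, in batch 1 alone, without scramble replicate 1 and without scramble replicate 2. Cyclin E1 (Ccne1) and cyclin E2 (Ccne2) bind Cdk2 and drive the start of S phase, and E2f1 and E2f2 are activators of replication genes. Ccne2 (ENSMUSG00000028212, chr4:11191351-11204779, plus strand of GRCm38) had 61.5, 62.9, 59.7 and 57.8 CPM in scramble replicates 1 to 4 and 79.3, 83.2, 71.5 and 74.2 CPM in Klf4 siRNA replicates 1 to 4. Each Klf4 siRNA library was above each control, and the rise was 24.98%, a log2 fold change of 0.32 (SE 0.04, adjusted p = 3.37e-06 by edgeR). Ccne2 is the member that passed under each of 17 other settings, with a log2 fold change between 0.30 and 0.35. Its exons share 609 bases with Ints8 on the opposite strand, and Ints8 had a log2 fold change of -0.086 (adjusted p = 0.091 by edgeR).

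Ccne1 (ENSMUSG00000002068, chr7:38097984-38107534, minus strand) moved the other way. Its levels were 71.1, 71.0, 73.2 and 74.3 CPM in scramble replicates 1 to 4 and 65.4, 65.2, 66.8 and 68.6 CPM after Klf4 siRNA, with no overlap. The log2 fold change was -0.11 (SE 0.03, adjusted p = 0.016 by edgeR), so that Ccne1 fell by 7.64%. Per kilobase of merged exons, Ccne2 stood at 0.593 to 0.675 of Ccne1 in the scramble libraries and at 0.816 to 0.973 of it in the Klf4 siRNA libraries. In CPM, by contrast, Ccne2 was above Ccne1 in each Klf4 siRNA library. The order there depends on the merged exon lengths used (3495 bases for Ccne2 and 2662 for Ccne1), so which cyclin E was more abundant is not settled. The call of Ccne1 was lost under 5 of 17 other settings, with an adjusted p of up to 0.151 in batch 1 alone.

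E2f2 (ENSMUSG00000018983, chr4:136172394-136196057, plus strand) had 67.1, 66.7, 64.1 and 61.7 CPM in scramble replicates 1 to 4 and 74.98, 70.9, 65.7 and 74.4 CPM after Klf4 siRNA. The ranges overlapped across batches, through Klf4 siRNA replicate 3, but not within either batch. Its log2 fold change was 0.11 (SE 0.03, adjusted p = 0.028 by edgeR). E2f1 (ENSMUSG00000027490, chr2:154559407-154569892, minus strand) had 127, 129, 123 and 127 CPM in scramble replicates and 116, 119, 114 and 125 CPM after Klf4 siRNA, lower within both batches. Its log2 fold change was -0.11 (SE 0.03, adjusted p = 0.024 by edgeR). Both calls were lost under 8 of 17 other settings, with an adjusted p of up to 0.192 for E2f2 and 0.228 for E2f1 without the batch term, and neither changed direction.

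**Figure D3:**
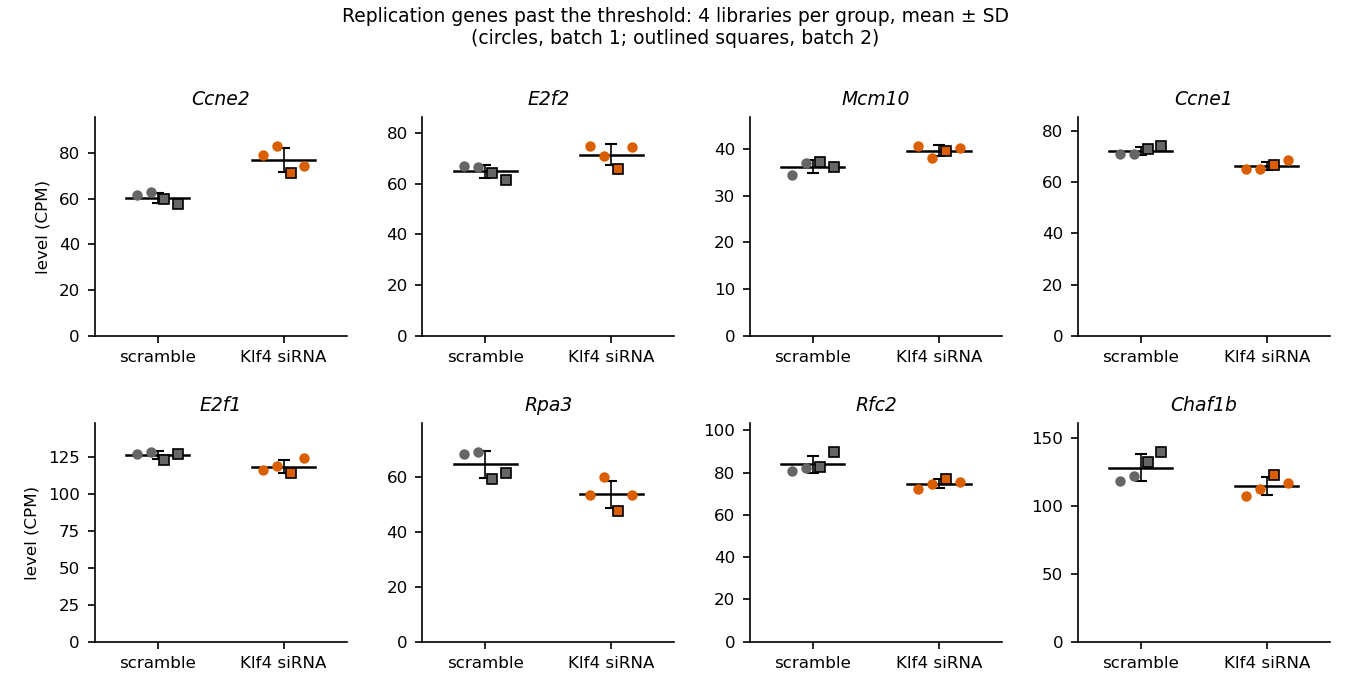
Level in CPM of the 8 genes that passed the threshold, with 1 point per library (circles, batch 1; outlined squares, batch 2), and the mean and SD of 4 libraries as bars; axes start at 0. Ccne2, E2f2 and Mcm10 are higher after Klf4 siRNA and the other genes lower, and within each treatment batch 2 lies apart from batch 1 for Rpa3, Chaf1b, Ccne2, E2f2 and Rfc2.

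None of the 4 origin licensing genes and 6 MCM2-7 helicase genes passed, where 11.7% of all genes did, and in groups this small 0 is near that share. Among the licensing genes Orc1, Orc6, Cdc6 and Cdt1, Cdc6, the loader of the helicase, had the largest log2 fold change, -0.084 (SE 0.04, adjusted p = 0.221 by edgeR). Its levels were 30.0, 29.2, 29.4 and 28.2 CPM in scramble replicates 1 to 4 and 28.9, 28.1, 27.3 and 26.5 CPM in Klf4 siRNA replicates 1 to 4, and the ranges overlapped. Cdt1, its partner, was at 88.3 ± 3.41 CPM in scramble libraries and 92.2 ± 2.15 CPM with Klf4 siRNA (n = 4 each, SD), which is a log2 fold change of 0.072 (adjusted p = 0.181 by edgeR). Orc1 and Orc6 had log2 fold changes of 0.017 and 0.035.

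The 6 subunits of the MCM2-7 ring lay between -0.051 (Mcm6) and 0.027 (Mcm7) on the log2 fold change scale, and their 95% intervals between -0.11 and 0.085. Mcm6 had 367, 375, 365 and 367 CPM in scramble replicates 1 to 4 and 349, 360, 352 and 369 CPM after Klf4 siRNA, with Klf4 siRNA replicate 4 inside the control range and the other 3 below it (adjusted p = 0.286 by edgeR). Mcm2, Mcm3, Mcm4 and Mcm5 had log2 fold changes of -0.047, -0.035, 0.016 and -0.012. Although the 6 proteins form 1 ring, their RNAs ranged from 45.03 CPM per kb (Mcm7) to 93.4 CPM per kb (Mcm3) in scramble means. That range depends on the annotated exons. Exons of Mcm7 overlap those of Ap4m1 and Cops6 on the opposite strand and of 2 microRNA genes on the same strand.

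Among the helicase activation genes 1 of 6 passed (16.7%), near the 11.7% of all genes. Mcm10 (ENSMUSG00000026669, chr2:4989714-5012791, minus strand), a scaffold that helps the helicase start, had 34.4, 37.1, 37.3 and 36.1 CPM in scramble replicates 1 to 4 and 40.6, 38.0, 39.5 and 40.2 CPM after Klf4 siRNA. Each Klf4 siRNA library was above each control, and the log2 fold change was 0.13 (SE 0.04, adjusted p = 0.025 by edgeR). The call of Mcm10 was lost under 7 of 17 other settings, and its adjusted p reached 0.203 when scramble replicate 1 was left out. The GINS subunits differed in sign without passing: Gins1, Gins2 and Gins4 had log2 fold changes of 0.19, 0.073 and 0.089, and Gins3 of -0.13 (adjusted p = 0.137, 0.283, 0.163 and 0.197 by edgeR). Cdc45, which joins GINS and the MCM ring, had -0.053.

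None of the 7 polymerase and primase genes passed. The log2 fold changes of Pola1, Pola2, Prim1, Prim2, Pold1, Pold2 and Pole ran from -0.034 (Prim1) to 0.010 (Pold1), with 95% intervals between -0.10 and 0.085. Prim1, the catalytic primase subunit, had 68.2, 70.0, 72.6 and 74.2 CPM in scramble replicates 1 to 4 and 67.5, 68.1, 68.4 and 72.2 CPM after Klf4 siRNA (adjusted p = 0.604 by edgeR), with the groups overlapping. Of the other polymerase delta and epsilon subunits, which lie outside the 44 genes, 3 of 5 passed, where 11.7% of all genes did, a group completed after the values were seen: Pold4 of polymerase delta, at 6.86 and 4.93 CPM in group means, had a log2 fold change of -0.49 (SE 0.07, adjusted p = 0.00013 by edgeR), and Pole4 of polymerase epsilon one of 0.15 (SE 0.03, adjusted p = 0.0017 by edgeR). Pole3, its partner in polymerase epsilon, had 0.13 (SE 0.04, adjusted p = 0.031 by edgeR). Pold3 and Pole2 did not pass, at 0.014 and -0.039 (adjusted p = 0.867 and 0.828 by edgeR), and the call of Pole4 was lost without the batch term (adjusted p = 0.17).

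In the clamp and its loader, Rfc2 passed, 1 of 6 genes (16.7%), near the 11.7% of all genes. The loader is a complex of a large subunit, Rfc1, and 4 small ones, Rfc2 to Rfc5, which open the Pcna ring around DNA. Rfc2 (ENSMUSG00000023104, chr5:134581366-134601805, plus strand) had 80.7, 82.1, 82.6 and 89.9 CPM in scramble replicates 1 to 4 and 72.1, 74.6, 76.9 and 75.7 CPM after Klf4 siRNA, with no overlap. Its log2 fold change was -0.15 (SE 0.03, adjusted p = 0.0052 by edgeR), a call lost under 2 of 17 other settings, at an adjusted p of up to 0.073. Rfc1, Rfc3, Rfc4 and Rfc5 had log2 fold changes of 0.045, 0.093, 0.083 and 0.048, positive where that of Rfc2 was negative, and Rfc3 came nearest to the threshold (adjusted p = 0.094 by edgeR). Pcna was at 282 ± 11.96 CPM in scramble libraries and 269.9 ± 12.3 CPM with Klf4 siRNA (n = 4 each, SD), which is a log2 fold change of -0.038. Exons of Rfc2 share 952 bases with Lat2 on the opposite strand, which had under 1 CPM in each group mean (0.691 and 0.939 CPM).

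RPA, the trimer that coats single strands, showed its change in the smallest subunit. Rpa3 (ENSMUSG00000012483, chr6:8255936-8259173, minus strand) had 68.6, 69.4, 59.5 and 61.5 CPM in scramble replicates 1 to 4 and 53.4, 60.1, 47.7 and 53.7 CPM after Klf4 siRNA. Across batches Klf4 siRNA replicate 2 lay just above scramble replicate 3, whereas within each batch all Klf4 siRNA libraries were below the controls. Its log2 fold change was -0.32 (SE 0.04, adjusted p = 6.34e-06 by edgeR), -0.31 within batch 1 and -0.34 within batch 2. The call was lost in 1 of 17 other settings, without the batch term (adjusted p = 0.121). Rpa1, the main DNA-binding subunit, had a log2 fold change of -0.070 (adjusted p = 0.137 by edgeR) and passed when Klf4 siRNA replicate 4 was left out, and Rpa2 had 0.0049.

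Among the chromatin genes Chaf1b (ENSMUSG00000022945, chr16:93883901-93906115, plus strand) passed. It encodes a subunit of chromatin assembly factor 1, which places histones on new DNA. Its levels were 119, 122, 132 and 140.2 CPM in scramble replicates 1 to 4 and 107, 113, 123 and 117 CPM after Klf4 siRNA, overlapping across batches and apart within each batch. The log2 fold change was -0.12 (SE 0.03, adjusted p = 0.022 by edgeR), and the call was lost under 5 of 17 other settings, and its adjusted p reached 0.239 without the batch term. Chaf1a, the large subunit of the same factor, had a log2 fold change of 0.0074 (adjusted p = 0.921 by edgeR), and Uhrf1, which reads hemimethylated DNA behind the fork, of -0.010.

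None of the 2 genes of flap cutting and ligation and 3 of nucleotide supply passed, where 11.7% of all genes did, and in groups this small 0 is near that share. Fen1, the flap nuclease, had 91.7, 91.9, 89.03 and 89.1 CPM in scramble replicates 1 to 4 and 88.7, 92.1, 87.8 and 95.4 CPM after Klf4 siRNA, a log2 fold change of -0.0046 (adjusted p = 0.956 by edgeR). Lig1, the ligase, had -0.0032. Rrm2 had 270.1, 275, 275 and 270.1 CPM in scramble replicates 1 to 4 and 286, 290.2, 275 and 301 CPM after Klf4 siRNA, a log2 fold change of 0.070 (SE 0.03, adjusted p = 0.142 by edgeR). Its partner Rrm1 had 0.012, and Tyms, the thymidylate synthase, -0.013. Exons of Fen1 share 1909 bases with Gm10143 on the opposite strand.

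The other genes of the pathway were counted in lists of their own. Against 11.7% of all genes tested, 10 of 46 further replication genes passed (21.7%), 4 higher and 6 lower, with a median log2 fold change of 0.0011, among them the thymidine kinase Tk1 (0.21, SE 0.04, adjusted p = 0.00053 by edgeR). Of 32 tested genes of G1 to S control, 12 passed (37.5%), 8 higher and 4 lower. On that list the D-type cyclins Ccnd2 and Ccnd3 rose by 0.56 and 0.33 on the log2 scale, the kinase Wee1 rose by 0.31, and the repressor E2f8 had a log2 fold change of -0.19 (adjusted p = 3.51e-06, 7.09e-05, 6.81e-05 and 0.000175 by edgeR). Wee1 is counted there although it acts mainly at entry into mitosis. Of 16 checkpoint and repair genes 3 passed (18.8%), all higher, among them Fancd2 (0.18) and Hus1 (0.17), with edgeR adjusted p-values of 0.0014 and 0.0083. Of 20 mitotic genes 10 passed, all higher, with a median log2 fold change of 0.12, and the smallest adjusted p-values were those of Ccnb1, Kif11, Bub1b and Nusap1 (log2 fold changes of 0.18, 0.16, 0.12 and 0.12, adjusted p = 0.0012, 0.0019, 0.0092 and 0.012 by edgeR). These counts rest on few libraries. Without scramble replicate 1 they were 5 further replication, 7 G1 to S, 1 checkpoint and 2 mitotic genes, and without scramble replicate 2 they were 4, 7, 3 and 3. The count over all genes also changes when a library is left out, so the 11.7% does not apply to these settings. The further replication genes also came to 5 without scramble replicate 3 or Klf4 siRNA replicate 3. Kif11, Bub1b and Nusap1 did not pass with a replicate block in place of batch (adjusted p = 0.101, 0.0625 and 0.0819 by edgeR). The difference between these lists and the 44 genes was not tested.

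**Figure D4:**
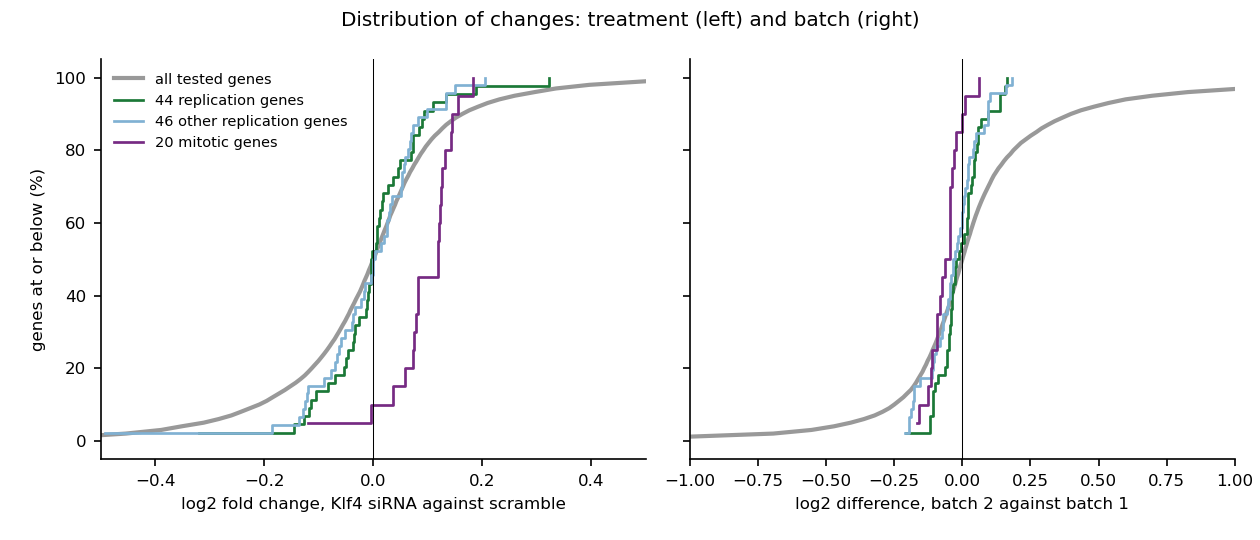
Cumulative share of genes (%) by log2 fold change after Klf4 siRNA (left) and by log2 difference of batch 2 from batch 1 (right), for all tested genes (grey), the 44 replication genes (green), 46 other replication genes (blue) and 20 mitotic genes (purple). The 44 genes centre on 0 in the treatment panel (median -0.0034), where the mitotic genes lie to the right (median 0.12). In the batch panel the median absolute log2 difference is 0.046 for the 44 genes and 0.118 for all tested genes.

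The libraries given Klf4 siRNA were not alike in these genes. Measured as the median deviation from the scramble mean of the same batch on the log2 scale, the 44 genes stood at 0.0028, -0.011, -0.032 and 0.059 in Klf4 siRNA replicates 1 to 4, and all tested genes between -0.0021 and 0.0024. Replicate 4 was thus the highest and replicate 3 the lowest, and Mcm2 to Mcm7 showed the same order at the ends, with 0.058 and -0.060. The mitotic genes were positive in all 4, at 0.11, 0.093, 0.036 and 0.19, again highest in replicate 4 and lowest in replicate 3. Mitochondrial transcripts took 5.59%, 4.11%, 5.75% and 5.89% of counts in these 4 libraries and 4.51% to 5.87% in scramble libraries, and their part was not tested. Without replicate 4, 9 of the 44 genes passed, the 8 and Rpa1.

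**Figure D5:**
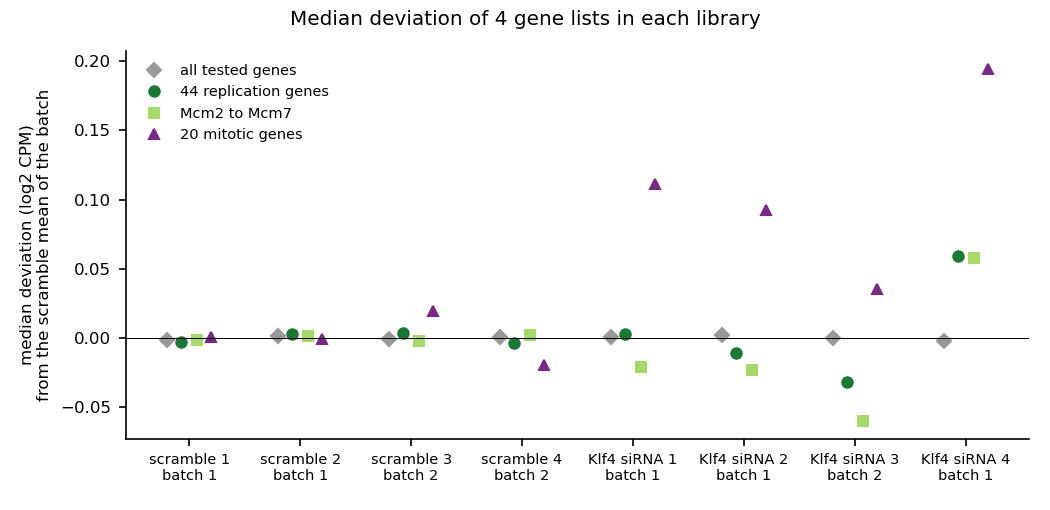
Median deviation of log2 CPM from the scramble mean of the same batch in each of 8 libraries, for all tested genes (diamonds), the 44 replication genes (circles), Mcm2 to Mcm7 (squares) and 20 mitotic genes (triangles). Klf4 siRNA replicate 4 is highest for the 44 genes (0.059) and Klf4 siRNA replicate 3 lowest (-0.032).

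In the fit of all 8 libraries, the share of replication genes that differed between batches was near that of all genes. Of the 44 genes 13 differed between batches at an edgeR adjusted p under 0.05 (29.5%), against 32.7% of all tested genes. The count was 6 with the scramble libraries alone and 4 without Klf4 siRNA replicate 3. The 32.7% does not apply to these settings, so whether the shares stay near each other there is not shown. Higher in batch 2 were 5 of them, where 16.8% of all genes were higher, and lower were 8, where 15.9% were lower. The median absolute log2 difference was 0.046 for the 44 genes and 0.118 for all tested genes. The largest differences were those of Rpa3 (-0.20, SE 0.04, adjusted p = 0.00032 by edgeR), Prim2 (0.17, SE 0.04, 0.0061), Chaf1b (0.16, SE 0.03, 0.0011) and Gins2 (0.14, SE 0.04, 0.012). Prim2, the large primase subunit, had 44.3 and 44.6 CPM in scramble replicates of batch 1, 49.8 and 52.7 CPM in those of batch 2, 42.9, 44.03 and 49.3 CPM in Klf4 siRNA libraries of batch 1 and 49.1 CPM in that of batch 2. Gins2 had 27.4 to 30.6 CPM in batch 1 and 30.5 to 32.5 CPM in batch 2, and 2758 bases of its exons overlap Gse1 on the opposite strand. The batch call of Gins2 was lost with the scramble libraries alone (adjusted p = 0.0826), by library size alone (0.0828), and without scramble replicate 2 (0.0534) or Klf4 siRNA replicate 3 (0.117). Rfc3, E2f2, Pola2, Mcm7, Pold2, Pcna, Ccne2, Pola1 and Rfc5 also passed, with log2 differences between -0.12 and 0.14.

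Rpa3, Chaf1b, Ccne2 and E2f2 passed in both comparisons, 4 of the 44 genes, where 5.5% of all genes did. The change with Klf4 siRNA had the same sign within both batches for 26 of the 44 genes and for 10588 of all 16333. The 8 genes that passed are among the 26, which their choice by a test over both batches nearly fixes. The difference in change between batches, tested by edgeR's quasi-likelihood interaction term, gave 0 of all 16333 genes at an adjusted p under 0.05 and 540 at an unadjusted p under 0.05. None of the 44 genes was among the 540, with Mcm7 nearest at an unadjusted value of 0.111. Without scramble replicate 3, 13 genes of all passed that test. Batch 2 has a single Klf4 siRNA library, which limits that test.

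The change can also be set beside the promoter words for the 36 genes with a window, which leaves out Ccne2 and Rfc2 of the 8 that passed, and Mcm4, Gins1, Gins2, Gins4, Prim2 and Pole. Among all genes tested 11.7% passed. Of the 14 genes with an E2F word 1 passed (E2f2), with log2 fold changes from -0.13 to 0.11 and a median of -0.0041. Of the 22 without an E2F word 5 passed (Ccne1, Chaf1b, E2f1, Mcm10 and Rpa3), with a median of -0.011. A gene without a word here may hold one outside its window or in another spelling, since only exact words were searched. The E2f1 window starts from a site inside the gene as annotated, which reaches to chr2:154569892 on the minus strand. The bases before the annotated start of E2f1 were therefore not searched. Of the 11 genes with the KLF word 2 passed, Ccne1 lower and E2f2 higher, both with their KLF word in the stretches shown, and of the 25 without the KLF word 4 passed. The medians of these groups were 0.012 and -0.012. Of the 24 genes with CCAAT 3 passed (E2f2, Mcm10 and Rpa3), and of the 12 without it 3 passed (Ccne1, Chaf1b and E2f1), with medians of -0.0069 and -0.0090.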

How the data were processed

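Counts were deposited by the authors as whole-number raw counts per gene, with a column per library, and were used as deposited. Per the submitters' processing notes, FastQC, STAR, featureCounts, DESeq2 and mm10 were named, with no versions, and the use of strand was not given in the sources used here. Reads of genes with overlapping exons can therefore be mixed. All 55536 identifiers matched GENCODE M21 (GRCm38), which gave positions and exon lengths. No value column was left unmapped (0), and 0 rows lacked a gene.

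Genes were kept with filterByExpr by treatment (16333), scaled by TMM and fitted in edgeR 4.0.16 (R 4.3.3) with a robust quasi-likelihood model of batch and treatment, after the design text. P-values are two-sided, Benjamini-Hochberg adjusted over all tested genes, with a threshold of 0.05. SE was taken from the log2 fold change and F (size over root F), and 95% intervals use its t quantile. Within-batch changes use log2 CPM with a prior count of 2. Alternatives used DESeq2 1.42.0 and limma 3.58.1 among others. The fit was tested on simulated data. Chtf8, with its symbol on more than 1 row, was left out of its list. Counts carry no molecular identifiers.

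The genes and lists were chosen with earlier results of these data known. Named in full were, from each role, up to 3 genes past the threshold with the smallest adjusted p, or else the largest change, then the 4 largest batch differences, and up to 4 genes past the threshold from each other list. E2f2, the fourth of its role, is given in full beyond that rule. Some genes that the rule names are not reported here.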

Additional observations from a re-analysis of the deposited data

Results flagged for a closer look

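Levels of 60 named genes were examined in each treatment, in 120 groups of 4 libraries, for a library whose gap to its nearest neighbour takes up most of the range of the group. At the limit used, chance passes about 1 in 20 groups, and 2 groups passed. For Mcm4, scramble replicate 4 was the lowest of the controls at 198 CPM, with a gap of 0.857 of the range. For Pole4, Klf4 siRNA replicate 3, which is the Klf4 siRNA library of batch 2, was the lowest of its group at 55.6 CPM, with a gap of 0.913 of the range.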

How the results depend on the processing

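Of all genes, 1909 passed, against 409 without the batch term and 1232 in batch 1 alone, and of the 44 genes 8 passed, against 1 and 3. A replicate block in place of batch gave 1220 genes in all and 5 of the 44, and 2 of the 20 mitotic genes, against 10. With that block Mcm10, E2f1 and E2f2 did not pass (adjusted p = 0.0935, 0.075 and 0.0763 by edgeR). Without the batch term 2 further replication, 5 G1 to S, 1 checkpoint and 1 mitotic gene passed, and further replication genes came to 4 in batch 1 alone and 6 by limma-voom. Leaving out 1 library gave 934 to 2021 genes in all, 3 to 9 of the 44, a Klf4 log2 fold change of -1.46 to -1.24, 3843 to 6210 genes for batch, and 0 to 13 for the interaction. Klf4 was at -1.39 (edgeR adjusted p = 0.104) in batch 1 alone and at -1.27 (0.052) without scramble replicate 1. The sign of Fen1, which never passed and whose log2 fold change ran from -0.021 to 0.010 with 1 library left out, turned to 0.0091 without the batch term, 0.0085 with the replicate block, 0.0017 in batch 1 alone, 0.010 without Klf4 siRNA replicate 1 and 0.0043 without Klf4 siRNA replicate 3, and that of Prim1 (-0.056 to 0.0035 with 1 library left out) to 0.00090 in batch 1 alone and 0.0035 without Klf4 siRNA replicate 3. The cause was not tested. Other scalings, filters and tools left 6 to 8 of the 44. Same-numbered libraries deviated together for replicates 1 to 3 (correlations of 0.49, 0.42 and 0.72) and not for 4 (-0.34). With batch taken out the correlations were -0.00053, -0.040, -0.30 and 0.12. Removing batch and treatment from 8 libraries itself shifts these values, so they cannot decide whether the numbers pair the samples. By chi-square per degree of freedom between 2 libraries, scramble replicates 1, 2 and 3 lay nearest to the same-numbered Klf4 siRNA library (10.4, 18.3 and 18.3). Scramble replicate 4 lay nearest to Klf4 siRNA replicate 3 (47.1), and scramble replicates 3 and 4 were 77.6 apart. Pairing was not tested further, and the main fit has no term for it.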

Other observations

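Within 50 kb of the 8 genes that passed, 20 other tested genes lay by GENCODE M21, and 4 of them passed, where 11.7% of all tested genes did. They were looked at after the values of the 8 were seen. Trp53inp1, a p53-induced gene 17.0 kb from Ccne2, stood at 152 ± 8.82 CPM in scramble libraries and 236 ± 19.5 CPM with Klf4 siRNA (n = 4 each, SD), a log2 difference of 0.59 (SE 0.03, adjusted p = 8.88e-11 by edgeR). Umad1 starts 115 bases from Rpa3 on the opposite strand and had a log2 difference of 0.23 (SE 0.05, adjusted p = 0.0021 by edgeR), where that of Rpa3 was -0.32. Mios, 19.7 kb from Rpa3, had 0.12 (adjusted p = 0.016 by edgeR), and Pxmp4, 15.9 kb from E2f1, had -0.19 (adjusted p = 0.038 by edgeR).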
